A study of Mus musculus with 7 samples.

Results

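The cytosolic ribosome is built from a large and a small subunit, each made of ribosomal RNA and a set of small basic proteins whose gene symbols begin with Rpl and Rps. The genes were chosen by symbol: Rpl or Rps followed by a number, with an optional a, l or x, together with Rpsa and the stalk genes Rplp0 to Rplp2. Of 18193 genes measured by a probe set that lists a single symbol, 46 met the rule, 24 of the large and 22 of the small subunit. RefSeq lists 81 protein-coding mouse genes with such symbols. A further 28 symbols of this form, Rpl3, Rpl5, Rpl10 and Rplp1 among them, occurred only on probe sets that list several symbols, and no level was assigned to them.

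Plantaris muscle, a plantar flexor of the hindlimb, was studied on 7 Affymetrix mouse expression arrays of mice aged 4 months. All mice of all groups, controls included, were Pax7-DTA animals, bred from Pax7-CreER and Rosa26-DTA lines, so that tamoxifen releases diphtheria toxin A in Pax7-positive cells, which in muscle are the satellite cells, its stem cells. Vehicle leaves the alleles silent. Overload was produced by synergist ablation, in which neighbouring muscles of like function are taken out, and lasted 1 week. There was 1 array of vehicle sham muscle and 1 of tamoxifen sham muscle, both of males. Vehicle overload had 2 arrays (replicate 1 female, replicate 2 male), and tamoxifen overload had 3 (replicates 1 and 2 male, replicate 3 female). The titles read as single mice, while the design text speaks of muscles pooled from both legs and of 11 animals, and the number of animals per array is therefore not settled. P-values therefore measure the spread between these arrays, which may be technical.

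As background, ribosomal protein mRNAs are among the most abundant in any cell, and their products are needed in equal numbers, 1 set per ribosome for most of them. Their transcripts begin with a run of pyrimidines (the terminal oligopyrimidine or TOP motif), through which mTORC1 signalling sets how fast they are translated, largely without a change in mRNA level. A growing muscle makes more ribosomes. Several proteins have paralogues with restricted expression: Rpl3l replaces Rpl3 in striated muscle, Rpl39l replaces Rpl39 mainly in testis, and Rps4l and Rps27l are relatives of Rps4x and Rps27.

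Levels are log2 of the deposited intensity plus 1, and every array was scaled by the authors to the same trimmed mean of 500. The level below which signal was taken as background, log2 5.77, came from 77 olfactory, vomeronasal and taste receptor genes. On every array 45 of the 46 genes lay above it, and the probe set of Rps16, at 0.76 to 1.72, lay below it on all 7. Bright probe sets that list Rps16 beside other symbols (1416404_s_at, mean of 13.83, and 1437196_x_at, 14.17) were not assigned to it. The probe sets fell into a bright class of 35 genes (means of 13.16 to 14.96) and a dim class of 11 (10.40 or less), a division made after the values were seen. Brightness of different probe sets does not rank the genes. Of the 11 dim genes 9 are also listed on probe sets shared with other symbols, against 6 of the 35 bright ones. The plot of levels by array shows Rpl3l, Rps4l, Rps25, Rpl39l, Rps6 and Rps4x, which are named below and are not a ranking by difference.

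**Figure D1:**
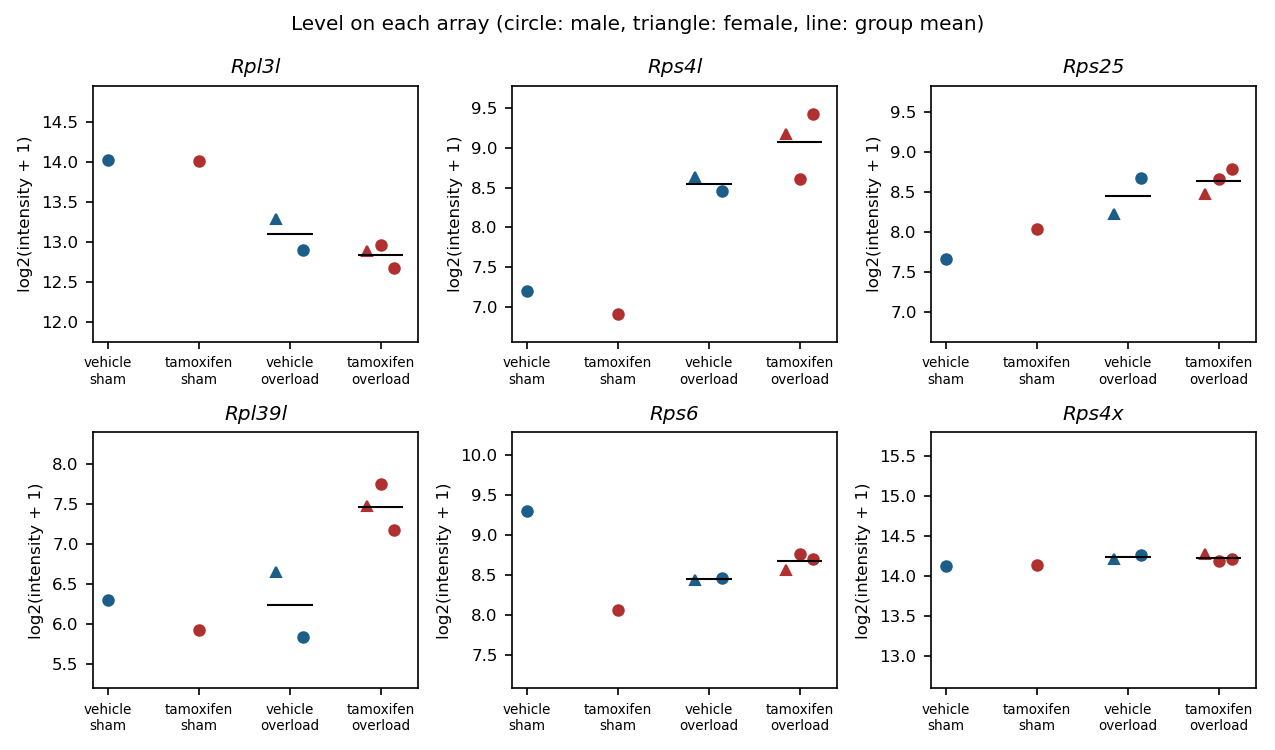
Level (log2 of intensity plus 1) of single ribosomal protein genes on each of the 7 arrays, by group; circles are males, triangles are females, the line is the group mean, and every panel spans the same log2 range. Rpl3l lies at 14.03 and 14.01 in sham and at 12.67 to 13.29 in overload, while Rps4l lies at 7.20 and 6.92 in sham and at 8.46 to 9.42 in overload.

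The first comparison was of overloaded with sham muscle (5 arrays against 2, averaged over both treatments). On the brightest probe set of each gene most differences lay in a narrow band, though further probe sets of some genes, given below, differed more. The muscle paralogue Rpl3l fell and 2 dim genes of the small subunit, Rps4l and Rps25, rose. So 2 of 46 genes were called higher (4.35%, against 14.7% of all genes tested) and 1 lower (2.17%, against 8.16%), by limma at an adjusted p under 0.05. In either direction these are 3 of 46, against 22.9%, and 6 of 46 had an unadjusted p under 0.05, against 34.6%. The median difference was 0.14 for the large subunit (17 genes above 0, 7 below) and 0.13 for the small subunit (16 above, 6 below), beside 0.07 for all genes, of which 53.7% lay above 0. All overload arrays exceeded both sham arrays for 20 genes (43.5%, against 23.1% of all genes). All overload arrays lay below both for 5 genes (10.9%, against 18.3%): Rpl3l, Rpl4, Rpl7a, Rpl8 and Rps2. These counts depended on scaling: 33 genes were higher without overlap and 1 lower under quantile normalization (19.5% and 22.4% of all genes), and 2 higher and 13 lower under median centring (15.1% and 29.3%). Each sham group had a single array, whose spread was assumed equal to that among the overload arrays.

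Rpl3l, measured by probe set 1449398_at, was at 14.03 in vehicle sham and 14.01 in tamoxifen sham. It was at 13.29 and 12.90 in vehicle overload, and at 12.96, 12.67 and 12.89 in tamoxifen overload replicates 1 to 3. The sham arrays were nearly alike and every overload array lay below them. The difference was -1.14 ± 0.16 (moderated SE; 95% interval -1.52 to -0.76), a 2.20-fold fall with an adjusted p of 0.00247. Without vehicle overload replicate 2 the difference was -1.0 with an adjusted p of 0.0577, and without the intensity trend in the variances the adjusted p was 0.0775. Over all alternatives the difference ran from -1.43 to -0.93, with adjusted p from 2.88e-05 to 0.0775.

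In bulk muscle, fewer cells of a type and less RNA per cell cannot be told apart. The 8 markers of muscle fibres made up 1.46% to 1.48% of the summed signal in sham and 1.12% to 1.35% in overload, with none of the 8 called (14.7% and 8.16% of all genes were). Markers of macrophages made up 0.0268% to 0.0491% in sham and 0.124% to 0.209% in overload (9 of 10 rose), and those of fibroblasts 0.159% to 0.210% and 0.487% to 0.625% (7 of 8 rose). The 4 measured markers of proliferating cells and 3 of 7 of satellite cells and myoblasts rose too, as did 2 of 3 tendon cell markers, Tnmd and Kera (0.0118% to 0.0148% in sham, 0.0335% to 0.104% in overload), and S100a8 of neutrophils. Both measured adipocyte markers, Adipoq and Lep, fell, and so did Kdr of endothelium, Mbp of Schwann cells and Alas2 of erythroid cells. The other endothelial markers did not go with Kdr: Pecam1 differed by 0.44 and Cdh5 by -0.08, and neither passed. S100a9 of neutrophils, at 0.27, did not pass either. The groups overlapped for S100a8, both adipocyte markers and Mbp. For Mbp, tamoxifen overload replicate 3 (11.66) lay above both sham arrays (10.52 and 11.13). Pax7 itself was dim (mean of 6.39) and did not pass in limma (adjusted p = 0.781). Calcr, Lep, Hba-a1 of erythroid cells and the 3 measured lymphocyte markers, Cd3e, Ms4a1 and Cd79a, averaged below background. The part of these shifts in the levels of ribosomal protein mRNAs was not tested.

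Rps4l, an S4-like relative of the X-linked Rps4x, rose from 7.20 and 6.92 in the sham arrays. It reached 8.63 and 8.46 in vehicle overload and 8.61, 9.42 and 9.17 in tamoxifen overload. No overload array came near a sham array, and the difference of 1.69 ± 0.27 (3.22-fold) had an adjusted p of 0.0039. It rests on a single dim probe set (mean of 8.35). The call was lost without the intensity trend, a fit that called 0 of all genes. Over all alternatives the difference ran from 1.40 to 1.89. Rps4x itself, on a bright probe set, differed by 0.09 ± 0.15 (adjusted p = 0.725).

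Rps25, a protein of the small subunit head, gave 7.67 and 8.04 in sham, 8.23 and 8.68 in vehicle overload, and 8.67, 8.79 and 8.48 in tamoxifen overload. The groups did not overlap, though the nearest arrays differ by less than the sham arrays do. The difference was 0.84 ± 0.20 (1.78-fold, adjusted p = 0.0189). This call was lost under quantile normalization (0.61, adjusted p = 0.072), under median centring (0.55, adjusted p = 0.0809), without the intensity trend (adjusted p = 0.0894) and without vehicle overload replicate 2 (0.75, adjusted p = 0.154). The bright probe set 1451068_s_at, which lists Rps25 beside Gm6988 and Gm4963, differed by -0.03 (adjusted p = 0.935).

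Just outside the threshold lay Rps19, a small subunit protein mutated in Diamond-Blackfan anaemia. It was at 12.94 and 12.82 in sham, 13.19 and 13.34 in vehicle overload, and 13.27, 13.46 and 13.32 in tamoxifen overload. Its difference was 0.47 ± 0.14 (adjusted p = 0.0521). The dim large subunit gene Rpl14 differed by 0.75 ± 0.24 (adjusted p = 0.058). For Rpl11, which also binds Mdm2 when ribosome assembly is disturbed, the difference was 0.41 ± 0.14 (adjusted p = 0.071).

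On their brightest probe sets, the 34 bright genes other than Rpl3l gave differences from -0.35 (Rpl8) to 0.47 (Rps19), and none passed the test. Their standard errors lay between 0.14 and 0.17, and their SD over the 5 overload arrays had a median of 0.073. The 95% interval lay within 2-fold of no difference for 34 of the 35 bright genes and within 1.5-fold for 25. Among the dim genes it lay within 2-fold for 5 of 11. In the stalk that recruits elongation factors, Rplp0 differed by 0.00 ± 0.16 and Rplp2 by 0.03 ± 0.15. Rpl38, a large subunit protein whose loss disturbs patterning of the axial skeleton, differed by -0.08 ± 0.17, and Rps27l by 0.09 ± 0.14. Rpsa, a small subunit protein first described as a laminin receptor, differed by 0.29 ± 0.15 (adjusted p = 0.205). Rpl8, a large subunit protein near the peptidyl transferase centre, went from 13.61 and 13.64 in sham to 13.10 to 13.38 in overload, which did not pass (-0.35 ± 0.15, adjusted p = 0.147). Rps27 had the widest spread of the dim genes, with 6.73 and 7.17 in sham, 6.90 and 8.41 in vehicle overload and 6.71, 8.83 and 6.48 in tamoxifen overload. Those groups overlapped (1.12 ± 0.56, adjusted p = 0.202). The plot of differences by gene shows both subunits together.

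**Figure D2:**
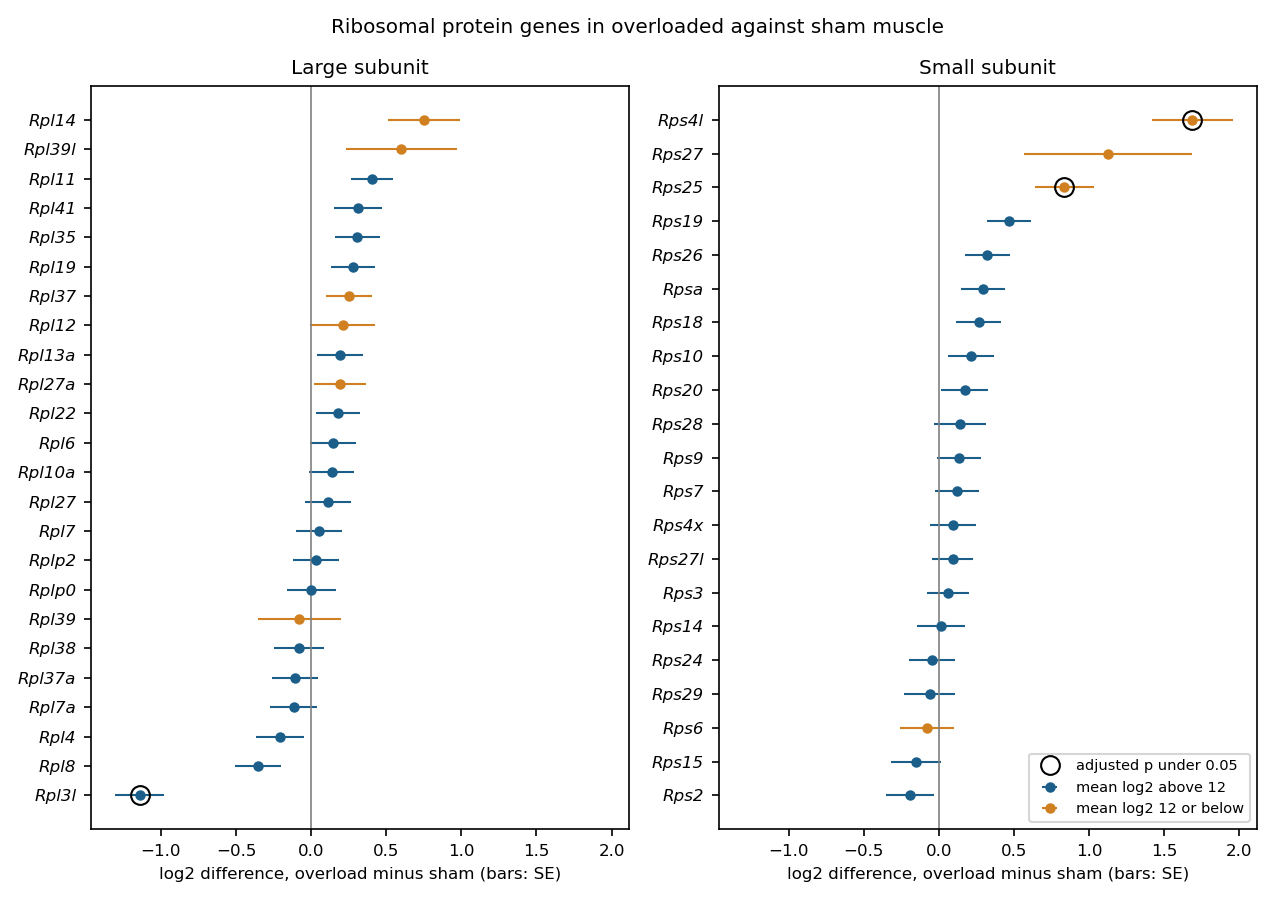
Difference between overload and sham (log2) for 45 of the 46 ribosomal protein genes, by subunit, with bars of 1 moderated SE on either side, which are narrower than the 95% interval; Rps16, whose single-symbol probe set is below background on every array, is left out. Rpl3l at -1.14 stands alone on the lower side and Rps4l at 1.69 on the upper, and the other bright genes lie between -0.35 and 0.47.

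How many of the genes passed depended on how the arrays were scaled. Quantile normalization raised the medians to 0.30 for the large and 0.36 for the small subunit and lowered that of all genes to -0.06. It called 12 genes higher (26.1%, against 11.2% of all genes) and 1 lower (against 7.18%). Those higher were Rpl11, Rpl13a, Rpl19, Rpl35 and Rpl41 of the large subunit, and Rps4l, Rps10, Rps18, Rps19, Rps20, Rps26 and Rpsa of the small. Median centring turned the medians to -0.15 and -0.16, beside -0.22 for all genes, with 11 of 46 above 0, and left 1 gene called higher and 1 lower. Under quantile normalization both medians stayed above that of all genes. Median centring shifts the difference of every gene by the same amount, so it cannot change the distance of these medians from that of all genes.

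The share of the summed signal of all genes does not change when an array is multiplied by a constant, though quantile normalization would change it. The 46 genes held 2.76% to 2.80% in sham and 2.98% to 3.15% in overload. The groups did not overlap for the large subunit (1.46% to 1.47% against 1.55% to 1.64%) or for the small (1.30% to 1.33% against 1.42% to 1.51%). The summed intensities themselves overlapped, at 580709.6 to 607110.1 in sham and 587065.8 to 640026.7 in overload for the 46 genes, so the separation in share goes with a smaller total. The brightest probe set of an array reached an intensity of 52100 to 56569 in sham and of 34937 to 45658 in overload, and the part of this lower ceiling in the shares was not tested. Over the bright genes, the median of the large subunit exceeded that of the small by 0.25 and 0.28 in the sham arrays. The excess was 0.21 and 0.20 in vehicle overload and 0.07, 0.08 and 0.16 in tamoxifen overload. No test was made of these values.

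**Figure D3:**
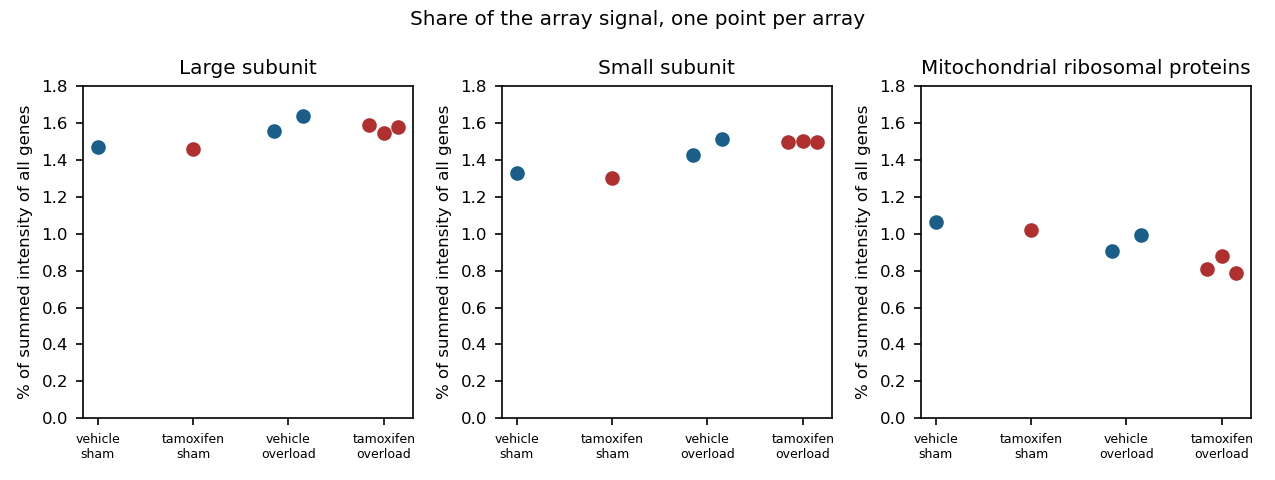
Share (percent) of the summed intensity of all genes held by the large subunit, small subunit and mitochondrial ribosomal protein genes on each of the 7 arrays. The large and small subunit genes are higher on all 5 overload arrays than on both sham arrays, and the mitochondrial genes are lower (0.785% to 0.991% against 1.02% to 1.06%).

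The start regions of the genes were compared with the RefSeq promoter table (GRCm38.p6), in which 40 of the 46 genes were found. For each gene only the most upstream annotated start was taken, so a run at another start would be missed. Runs of at least 8 pyrimidines on the sense strand were sought, lying in or reaching into the 20 bases on either side of it. Such a run was found in 20 of the 40 (50%), against 20.8% of 27025 genes. In the 300 bases from 250 before to 50 after the start, on either strand, CCGGAAG, a core recognised by ETS factors, was found in 20 (50% against 9.14%). CTTTCC was found in 17 (42.5% against 26.4%), TATAAA in 5 (12.5% against 14.2%) and the E-box CAGCTG in 3, Rpl3l, Rpl6 and Rpl35 (7.5% against 16.1%). A match is a description of the letters and not a bound site. The sequences show Rpl3l, which fell in overload, and Rpl39l, which had the smallest unadjusted p between treatments in overload but did not pass, beside Rpl38 and Rplp2, which differed little from sham. Rps4l was not among the 40. Each runs 5′ to 3′ from 60 bases before the start through 20 bases from it, and the capitals mark the longest pyrimidine run near the start.
Rpl3l: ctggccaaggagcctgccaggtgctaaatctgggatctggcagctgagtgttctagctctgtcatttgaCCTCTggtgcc
Rpl39l: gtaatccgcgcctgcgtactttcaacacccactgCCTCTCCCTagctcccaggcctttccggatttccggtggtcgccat
Rpl38: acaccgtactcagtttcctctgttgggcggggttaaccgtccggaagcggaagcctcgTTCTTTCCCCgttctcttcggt
Rplp2: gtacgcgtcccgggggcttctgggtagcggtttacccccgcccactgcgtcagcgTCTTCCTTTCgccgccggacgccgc
They lie at chr17:24727766-24727845, chr16:10170168-10170247, chr11:114668520-114668599 and chr7:141447591-141447670, all on the plus strand. In Rpl38 and Rplp2 a run of 10 pyrimidines spans the start. The run of Rpl39l has 9 and ends before the start, and that of Rpl3l has 5 and follows it. The windows of Rps27l and Rps27 were also read and are not printed. Rps27l, which differed little from sham too, has a run of 9 that ends before the start. Rps27, whose groups overlapped, has a run of 9 that spans it. Among the windows read, Rpl3l was the only gene called for overload against sham. Whether the position of the run goes with a difference therefore cannot be told. Among the 4 printed windows that of Rpl3l is the one with CAGCTG.

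Within each treatment the comparison of overload with its own single sham array had less precision. With satellite cells kept (vehicle, 2 arrays against 1), limma called 0 of 46 genes higher (6.35% of all genes were) and 1 lower (2.44%), together 1 of 46 against 8.79%. At an unadjusted p under 0.05 were 4 of 46, against 24% of all genes. Rpl3l was the gene that fell, by 1.04 on the log2 scale (SE 0.23, adjusted p = 0.0325). Rps4l gave 1.27 ± 0.38 (adjusted p = 0.0822), Rps25 0.95 ± 0.28 (adjusted p = 0.0769) and Rps6 -0.80 ± 0.26 (adjusted p = 0.0994). With the toxin switched on (tamoxifen, 3 arrays against 1), 1 gene was called higher (9.98% of all genes were) and 1 lower (4.9%), together 2 of 46 against 14.9%. At an unadjusted p under 0.05 were 8 of 46, against 29.8% of all genes. Rps4l rose by 2.10 ± 0.35 (4.29-fold, adjusted p = 0.00735) and Rpl3l changed by -1.24 ± 0.21 (adjusted p = 0.00819). Rpl39l (1.43 ± 0.48), Rpl14 (0.84 ± 0.31) and Rps25 (0.72 ± 0.25) did not pass, with adjusted p of 0.0846, 0.113 and 0.0964.

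Whether the response to overload differed between treatments was tested as an interaction. No gene of the 46 and none of all 18193 (0%) passed in limma, with 3 of 46 at an unadjusted p under 0.05, against 5.61% of all genes. For Rpl3l the interaction was -0.21 ± 0.30 and for Rps4l 0.83 ± 0.49 (adjusted p of 0.997 and 0.964). Rps6, the small subunit protein phosphorylated by S6 kinase, had the smallest unadjusted p of the 46. It was at 9.30 in vehicle sham, 8.07 in tamoxifen sham, 8.44 and 8.46 in vehicle overload, and 8.77, 8.70 and 8.56 in tamoxifen overload. The 5 overload arrays lie between the 2 sham arrays. The interaction of 1.45 ± 0.33 (adjusted p = 0.717) thus rests on single sham arrays. The other two were Rpl39 (-1.46 ± 0.50, adjusted p = 0.782) and Rpl39l (1.66 ± 0.67, adjusted p = 0.842).

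The single sham arrays were compared with each other by value, and no test was made. Past a 1.5-fold difference in either direction lay 3 of the 46 genes, against 30.1% of all genes. They were Rps6 (tamoxifen minus vehicle, -1.24), Rpl39 (0.93) and Rps16, whose own probe set is below background. All 3 are measured here by dim probe sets. Bright probe sets shared with other symbols were close in the same arrays: 1416141_a_at, which lists Rps6 beside Rps6-ps4, gave 14.21 in vehicle and 14.19 in tamoxifen sham. Probe set 1450840_a_at, which lists Rpl39 beside Gm32211, gave 14.68 and 14.70.

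The last comparison was of tamoxifen with vehicle in overloaded muscle (3 arrays against 2). All mice carried the toxin allele, so tamoxifen itself and the depletion of Pax7-expressing cells cannot be told apart. The ribosomal protein genes were nearly level. None passed in limma, as for all 18193 genes (0%), and 1 of 46 had an unadjusted p under 0.05, against 10.6% of all genes. Below 0 lay 34 of the 46 (21 of 24 of the large and 13 of 22 of the small subunit), with medians of -0.07 and -0.02 beside 0.03 for all genes, of which 52.8% lay above 0. This direction depended on scaling, since under quantile normalization 32 of 46 lay above 0. Tamoxifen arrays lay above both vehicle arrays for 4 genes (16.9% of all genes did) and below both for 9 (12.6%). For the bright genes differences ran from -0.25 (Rps27l) to 0.09 (Rps18), and the 95% interval lay within 2-fold for 35 of 35 and within 1.5-fold for 34. No cell type marker was called by limma in the same comparison, though several marker lists lay mostly to one side of 0. Satellite cell and myoblast markers lay below 0 for 6 of 7 (median -1.09, 4 at an unadjusted p under 0.05) and fibre markers for 8 of 8 (median -0.20). Macrophage markers lay above 0 for 9 of 10 (median 0.49, 7 at an unadjusted p under 0.05) and neutrophil markers for 2 of 2 (median 1.77). So did fibroblast markers for 8 of 8 (median 0.24) and those of proliferating cells for 4 of 4 (0.44). Tendon cell markers did for 3 of 3 (0.80) and endothelial markers for 3 of 3 (0.35). Mbp differed by 1.12, and lymphocyte, adipocyte and erythroid markers lay on both sides of 0. The part of these markers in the values of the ribosomal protein genes was not tested.

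The gene with that unadjusted p was Rpl39l, a dim large subunit paralogue. It gave 6.30 and 5.93 in the sham arrays, 6.65 and 5.84 in vehicle overload, and 7.76, 7.18 and 7.48 in tamoxifen overload. All 3 tamoxifen overload arrays lay above the other 4. The difference between treatments in overload was 1.28 ± 0.37 (2.43-fold) and did not pass the correction over all genes (adjusted p = 0.394). Its relative Rpl39 differed by -0.53 ± 0.27 (adjusted p = 0.522). Between females and males 0 of the 46 genes were called in limma (1 at an unadjusted p under 0.05, Rps27 at -1.38, against 5.01% of all genes). Of all genes 9 were called (0.0495%), 0.033% higher in females and 0.0165% lower.

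The 46 genes have 100 probe sets that list them alone, and 23 of the genes have a single one. Tested separately, 9 of the 100 were higher in overload and 2 lower (9% and 2%, against 10.8% and 5.7% of all 45037 probe sets). Their median difference was 0.19, and 0.14 for the 65 with a mean above 12, beside 0.09 for all probe sets. On the brightest probe sets alone, the median was 0.13 for the 46 genes and 0.11 for the 35 bright ones. Of the 110 probe sets that list a ribosomal protein gene beside other symbols, 7 were higher and 2 lower. No gene had called probe sets of opposite sign. For some genes, picked out after the values were seen, probe sets differed widely. Rpl13a gave 0.19 on its brightest probe set and 1.23 on 1433928_a_at (limma adjusted p = 0.00485). Rpl37a gave -0.11 on its brightest and 1.77 on 1416218_x_at (limma adjusted p = 0.00432). Dimmer probe sets of Rpl27, Rpl35 and Rps24 were also called higher (0.54, 0.53 and 0.69), though their brightest were not called. Rps10 gave 0.22 on its brightest probe set, 0.58 on 1434854_a_at (adjusted p = 0.0258) and 4.65 on 1439374_x_at, which went from 8.24 and 8.19 in sham to 11.40 to 13.17 in overload (adjusted p = 3.46e-05). Rpl22, a large subunit protein that binds structured RNA, gave 0.18 and 0.29 on 2 probe sets and -0.88 on 1448398_s_at (adjusted p = 0.0048). The plot of probe sets shows these against the rest.

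**Figure D4:**
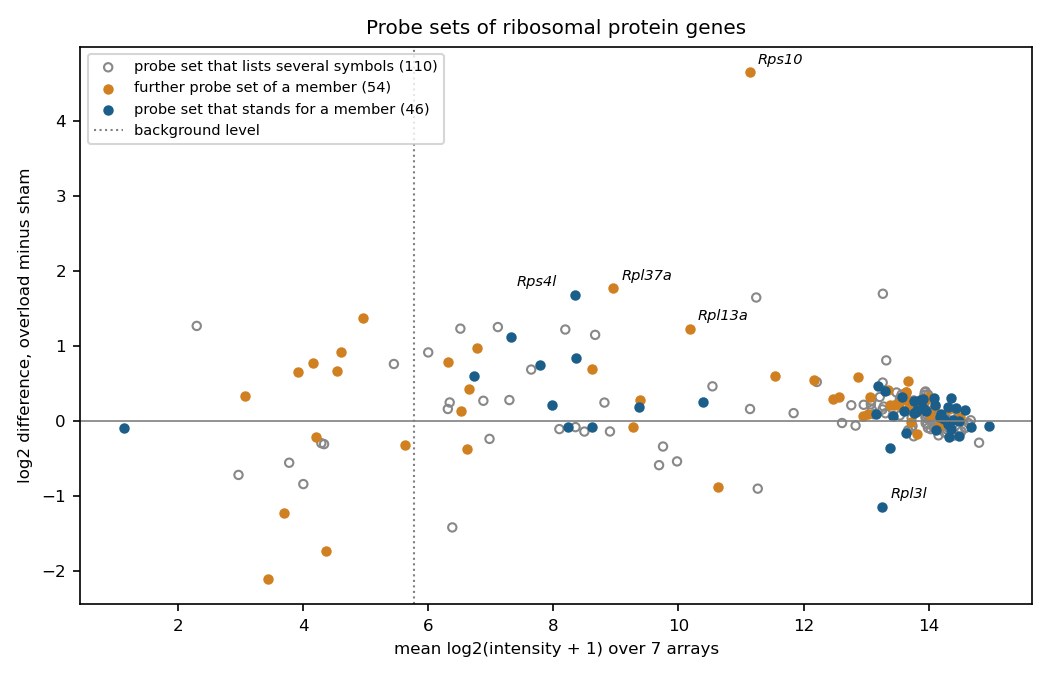
Difference between overload and sham (log2) for each probe set of the ribosomal protein genes against its mean level (log2 of intensity plus 1). Bright probe sets crowd near 0, with Rpl3l at -1.14 below them, and the Rps10 probe set 1439374_x_at at 4.65 lies far above all others.

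Genes that work with the ribosome did not share one course in overload against sham (14.7% of all genes were called higher and 8.16% lower). Of 13 measured translation factors and other genes with TOP mRNAs, 2 rose and 1 fell, with a median of 0.06 (3 and 1 under quantile normalization, 0 and 2 under median centring). Eef1a1, which delivers aminoacyl-tRNA, rose by 0.67 (adjusted p = 0.0226) and Pabpc1, the poly(A)-binding protein, by 0.50 (adjusted p = 0.0413), while Eif4b, a helicase cofactor of initiation, fell by 0.75 on the log2 scale (adjusted p = 0.0053). Of 25 genes of ribosome assembly and RNA polymerase I, 0 rose and 4 fell in limma, with 9 at an unadjusted p under 0.05 and a median of -0.20. Under quantile normalization 2 of the 25 fell (1306 of all 18193 genes did) and under median centring 10 (2710 of all genes). Those lower with the deposited scaling were Nob1 (-0.80), which cleaves the precursor of the small subunit RNA, Rrs1 (-0.74), Dkc1 (-0.53) and Mybbp1a (-0.48). Myc, a driver of ribosome synthesis, differed by 0.98 (adjusted p = 0.0567).

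Genes named for the mitochondrial ribosome, a separate set of nuclear genes, were chosen by symbol alone (Mrpl or Mrps and a number). Such a symbol does not settle that each product, that of Mrps36 for one, is part of that ribosome. They held a lower share of the signal on every overload array than on either sham array, where the cytosolic genes held a higher one. Of 76 genes 0 rose and 19 fell in limma (14.7% and 8.16% of all genes did), with a median of -0.30. At an unadjusted p under 0.05 were 33 of the 76, against 34.6% of all genes. Quantile normalization left 12 lower (1306 of all 18193 genes were) and median centring 37 (2710 of all genes). The largest falls were of Mrpl55 (-0.85), Mrps24 (-0.72), Mrpl34 (-0.72) and Mrps36 (-0.71). In tamoxifen against vehicle overload 2 of the 76 lay above 0, against 52.8% of all genes, and 74 below. Their median was -0.26, and limma called 0 of them, with 14 at an unadjusted p under 0.05 (10.6% of all genes). All 8 fibre markers lay below 0 too, with a median of -0.20, and their part in this was not tested. Of 4 measured ribosomal genes whose symbols fall outside the rule, Rpl22l1 (-0.37), Fau (0.22), Rps3a1 (-0.11) and Rpl7l1 (0.08), none passed.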

How the data were processed

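The series matrix, as deposited, gives linear intensities, 1 per probe set and array, made from 1 µg of total RNA per the labels. With 2% trimmed from each end their mean is 500 on every array. The submitters' processing notes name Partek, with no version or role. The summarisation method was not given in the sources used here.

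Values were taken as log2(value + 1) from the deposited intensities. Of 45101 probe sets, 34945 list 1 symbol (34741 matched through Entrez, 204 unmatched). Each gene is represented by its probe set of highest mean. A model with group and sex terms was fitted with limma 3.58.1 (R 4.3.3, package data.table, version 1.17.8), with an intensity trend in the variances (2 residual and 5.95 prior degrees of freedom). Tests were two-sided, with Benjamini-Hochberg adjustment over 18193 genes and a threshold of 0.05. Background is the 95th percentile of the receptor genes. The procedure was tested on simulated data. The members and lists were chosen with earlier results of these data known. Named genes were the called members, filled to 5 per comparison from those with the largest differences at an unadjusted p under 0.05, plus paralogues, Rps4x, Rps6, Rpsa, the stalk genes, Rpl11, Rpl22, Rpl38, genes below background and up to 4 genes per other list. Figures used Python 3.11.15 with pandas 2.3.3 and matplotlib 3.10.9. Alternatives were other scalings, pseudocount, filters, probe set rules and models, and leaving out each array.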

Additional observations from a re-analysis of the deposited data

Results flagged for a closer look

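Signal outside the values that represent the genes was higher in overload on several probe sets, each called in limma except the ribosomal RNA control, which was not tested. They are given by identifier with the symbols the annotation lists, as differences between overload and sham on the log2 scale. Among probe sets that list 1 gene but were not the brightest, 1433928_a_at of Rpl13a differed by 1.23, 1416218_x_at of Rpl37a by 1.77 and 1439374_x_at of Rps10 by 4.65. Among those listing several symbols, 1420381_a_at (Rpl31-ps12 and Rpl31) differed by 1.22, 1438527_at (Gm5879, Gm12816 and Rpl3) by 1.25, 1453752_at (Rpl17 with several others) by 1.15 and 1455871_s_at (Rpl13 and Tax1bp3) by 1.65. Probe set 1449323_a_at (Gm12816 and Rpl3) went from 11.92 and 12.19 in sham to 13.53 to 13.94 in overload, a difference of 1.70 (limma adjusted p = 0.000685). It cannot be assigned to Rpl3 from the annotation. The 5′ control probe set of 18S ribosomal RNA averaged 11.1 in overload and 9.70 in sham, with 10.48 and 8.92 in the sham arrays, 9.76 and 11.03 in vehicle overload and 12.33, 12.22 and 10.29 in tamoxifen overload, so the groups overlap. The 3′ and middle control probe sets averaged 9.25 and 9.55 in overload and 9.72 and 9.48 in sham. What these signals come from was not tested.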

How the results depend on the processing

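The number of ribosomal protein genes called for overload against sham was 3. It was 6 without the sex term, 13 with quantile normalization, 6 with dim genes filtered out, 7 with probe sets averaged per gene, 10 with every probe set tested, 6 in the additive model and 0 without the intensity trend. That last fit called 0 of all 18193 genes in limma (5234 at an unadjusted p under 0.05), against 4163 called with the trend (6292 at an unadjusted p under 0.05). With quantile normalization 11.2% of all genes were called higher and 7.18% lower. With every probe set tested, here and below, a gene counted if any of its probe sets passed. The ribosomal protein genes have 100 such probe sets, so the 10 cannot be compared with the 3. Of all probe sets 10.8% were called higher and 5.7% lower. For the other alternatives in this list no share of all genes is given here, so their counts have no background. Leaving out 1 overload array gave 1 to 6 ribosomal protein genes called. Within vehicle the number was 1, and became 3 without the sex term, 0 in male arrays alone, 0 with quantile normalization, 2 with median centring, 2 with the filter, 3 with every probe set and 0 without the trend (0 to 3 with 1 array left out). Within tamoxifen it was 2, and became 8 with quantile normalization, 4 with the filter, 5 with the mean of probe sets, 6 with every probe set and 0 without the trend (2 to 4 with 1 array left out). The median of the large subunit, 0.14, became 0.30 with quantile normalization, -0.15 with median centring and 0.20 with every probe set, and lay at 0.013 to 0.16 with 1 array left out. That of the small subunit, 0.13, became 0.36, -0.16 and, with the mean of probe sets, 0.24 (0.073 to 0.13). For tamoxifen against vehicle and the interaction 0 members were called under every alternative run. For sex 0 to 1 were, with 1 when tamoxifen overload replicate 1 was left out. The cause of these changes was not tested.

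With a sham array left out, overload against sham over both treatments cannot be formed. No paired analysis was possible because each sham group has 1 array and the replicate numbers do not pair animals across groups. Omission of a female array is close to fitting the male arrays alone. The every-probe-set fit with shared probe sets and the split into bright and dim were chosen after seeing the data. The number of arrays, and signal near background for the dim genes, limit the precision.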
